A study of Homo sapiens with 84 samples.

Results

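The comparison described here sets Kyse30 cells treated for 72 h with EGF + EpEX against Kyse30 cells treated for 72 h with Fc alone. It holds 6 libraries, 3 of each treatment, chosen by the treatment and time in the sample labels out of 43 Kyse30 libraries and 84 libraries in all. Kyse30 is an esophageal squamous cell carcinoma line that carries an amplified EGFR gene. All cells were serum-starved before and during treatment. EpEX was given as EpEX-Fc, a fusion of the ectodomain of EpCAM with the Fc region of an immunoglobulin, and recombinant Fc served as its control. The label of the combination names EGF and EpEX without doses, and in the description of the study it is EGFhigh (9 nM) given with EpEX. Total RNA was read by 3′ RNA-seq, in which each transcript gives reads from its 3′ end only, and levels are given as CPM, the counts of a gene relative to all counts on genes in its library.

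EGF binds the receptor tyrosine kinase EGFR and activates the MAPK and AKT cascades, which in squamous epithelium drive proliferation, migration, and, under strong signaling, epithelial-to-mesenchymal transition (EMT). EpCAM is a membrane glycoprotein of carcinoma cells whose ectodomain, EpEX, is cut off by proteases and is a ligand of EGFR. The comparison therefore asks which transcripts still differed from control 3 days (72 h) after EGF and EpEX had been given together.

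The libraries held 3262475 to 10283031 counts on genes, and 3 counts, the floor of detection used here, equaled 0.292 to 0.92 CPM. Rank correlations between libraries were 0.949 to 0.961 within EGF + EpEX and 0.90 to 0.944 within Fc, and no 2 libraries were identical. The library of Fc replicate 3 stood apart: 93 of 7296 genes that exceeded 10 CPM in the other 5 libraries were 4-fold or more below the median of those 5, against 0 to 10 genes in each other library. Each of the 12 squamous markers had counts in at least 1 of the 6 libraries. They summed to 1960–2279 CPM after EGF + EpEX and 1575–1850 CPM after Fc, mostly from PERP and SFN. KRT5 and KRT14 were low (at most 6.36 CPM). PKP1 was at 0 in EGF + EpEX replicate 3 and in Fc replicates 1 and 2, and TP63 was at 2.58 CPM in Fc replicate 3. Leukocyte markers summed to at most 7.03 CPM, with 5 of 10 at 0, and endothelial markers to at most 7.63 CPM, with 5 of 7 at 0. Fibroblast markers, mostly COL1A1 and COL1A2, summed to 24.5–35.5 CPM and 15.5–46.9 CPM. In bulk RNA a smaller share of cells in a given state and less RNA per cell cannot be told apart.

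After 72 h, EGF + EpEX left no DEG over Fc. Genes that EGFhigh moved at 72 h leaned the same way, with smaller medians than with EGFhigh: stress keratins and SPRR1B were higher, fibronectin (FN1) and the glucose transporter gene SLC2A3 were lower, and most genes of G2/M phase were slightly lower. None of these differences passed the adjusted test as single genes. Of 15350 genes tested by edgeR's quasi-likelihood test, 0 (0%) reached an adjusted p (Benjamini-Hochberg) of at most 0.05 with an absolute log2FC over 0.5, and the lowest adjusted p was 1. DESeq2 also called 0 genes, with 645 at an unadjusted p under 0.05. At an unadjusted p under 0.05, 601 genes differed, 334 higher (2.18%) and 267 lower (1.74%). The 3 libraries of each group did not overlap for 694 genes that were higher (4.52%) and 619 that were lower (4.03%). The median standard error of a log2FC was 0.43, and the median log2FC over all genes was 0.0014. Without Fc replicate 3 the number of DEGs was again 0, with 756 genes at an unadjusted p under 0.05. Leaving the filter on low counts out gave 10 DEGs, among them KRT6A, SPRR1B, CGA, CD9, KRT16, CNTN1, and KRT13, which were higher, and FN1, which was lower. CD9 is among the genes that are low in Fc replicate 3 alone, at 25.8 CPM against 137 to 365 CPM in the other libraries.

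**Figure D1:**
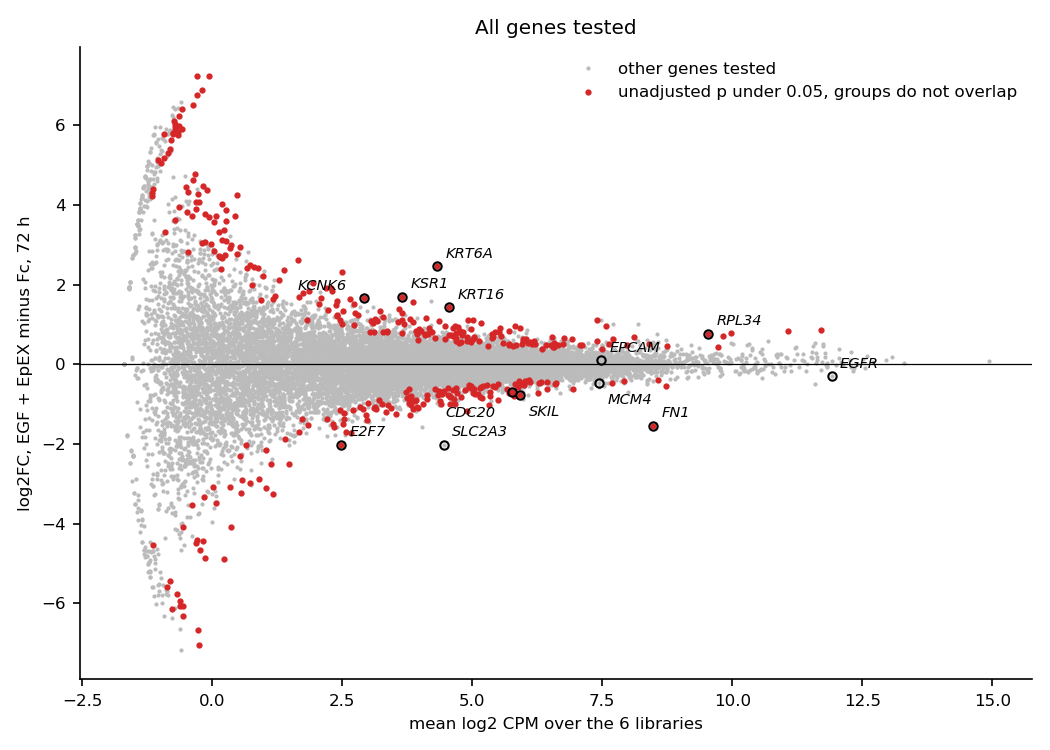
Each point is 1 of the 15350 genes tested, with its mean log2 CPM over the 6 libraries on the x axis and its log2FC (EGF + EpEX minus Fc, 72 h) on the y axis. Red points have an unadjusted p under 0.05 and groups that do not overlap (227 higher, 154 lower), and none of them passed the adjusted test. KRT6A lies high and FN1 and E2F7 lie low.

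The lowest unadjusted p belonged to TSPAN1, a tetraspanin of epithelial cells, which is named after its values had been seen. Its levels were 269.3, 287.6, and 255.6 CPM after EGF + EpEX and 173.9, 103.2, and 135.4 CPM after Fc. The groups did not overlap, and the log2FC was 0.98 ± 0.24 (SE, edgeR adjusted p = 1). Every other adjusted p of this comparison was 1 as well, so each log2FC below is given with its standard error (SE) from the same edgeR fit, and a p under 0.05 means an unadjusted one.

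Gene lists held 1073 genes, of which 967 passed the filter and were tested, and all counts below are over those tested. Keratins of stressed and wounded squamous epithelium had the largest median of the lists described here. KRT6A, a type II keratin induced in wounded and hyperproliferative epithelium, measured 29.8, 28.1, and 93.7 CPM after EGF + EpEX and 5.88, 12.8, and 9.35 CPM after Fc. All treated libraries lay above all Fc libraries, with replicate 3 far above the other 2. Its log2FC was 2.47 ± 0.70 (SE). Near-identical copies (KRT6B and KRT6C) make the assignment of reads to KRT6A uncertain. KRT16, its type I partner, measured 42.2, 16.7, and 63.6 CPM against 16.4, 15.4, and 13.5 CPM, with a log2FC of 1.43 ± 0.52. Here the groups were separated by replicate 2 only narrowly. KRT17 overlapped between groups, at 13.3, 8.58, and 41.0 CPM against 11.2, 14.2, and 13.5 CPM. The 4 stress keratins tested were all higher, with a median log2FC of 1.95. KRT6B was at 0 in every Fc library, and with this gene set to the bound that the floor of 3 counts over the group gives, the median was 1.31. Without EGF + EpEX replicate 3, 3 of the 4 were higher and the median was 1.33. The same 4 genes had a median of 4.35 (4.13 with the bound) for EGFhigh over untreated cells at 72 h and of 2.75 for EGF + EpEX over Fc at 6 h. For EpEX alone over Fc at 72 h the median was 0.79 without the bound. KRT6A was higher there (log2FC 1.49 ± 0.70) and KRT16 was not (−0.20 ± 0.53). The mean log2 CPM over the 4 genes was 3.46, 2.39, and 2.83 after EpEX alone, which overlapped with 3.10, 3.23, and 4.055 after EGF + EpEX. Over all 15 keratins tested, 13 were higher and 2 lower, and the median was 0.50. At an unadjusted p under 0.05, 4 were higher and 0 lower, against 2.18% higher over all genes. The summed squamous markers were likewise higher in every treated library, and their part in the result was not tested. The basal keratin KRT15 measured 92.6, 56.2, and 112.0 CPM against 59.0, 43.1, and 49.6 CPM, which overlap, and KRT14 stayed at or below 6.36 CPM in every library. KRT19, a keratin of simple epithelium, measured 4206, 2959, and 5542 CPM against 3262, 1921, and 3786 CPM.

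Precursors of the cornified envelope, the crosslinked protein shell of terminally differentiated keratinocytes, showed smaller and less even differences. SPRR1B, a small proline-rich precursor, measured 36.8, 10.7, and 63.0 CPM after EGF + EpEX and 17.2, 9.17, and 9.03 CPM after Fc. Replicate 2 of the treated group lay below Fc replicate 1, so the groups overlapped, and the log2FC was 1.60 ± 0.44. In EGFhigh the mean of SPRR1B was 536.3 ± 116.4 CPM (SD, n = 3), against 9.62 ± 0.98 CPM in untreated cells. Reads of the SPRR2 genes are uncertain because these genes are near copies of each other. Of 19 envelope genes tested, 14 were higher and 4 lower, with a median of 0.44. At an unadjusted p under 0.05 there were 2, both higher, against 2.18% higher over all genes. The 13 precursors had a median of 0.44 as well, against 2.48 for EGFhigh at 72 h and 0.84 for the combination at 6 h, where the median was 0.34 with genes at 0 in a group set to that bound.

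**Figure D2:**
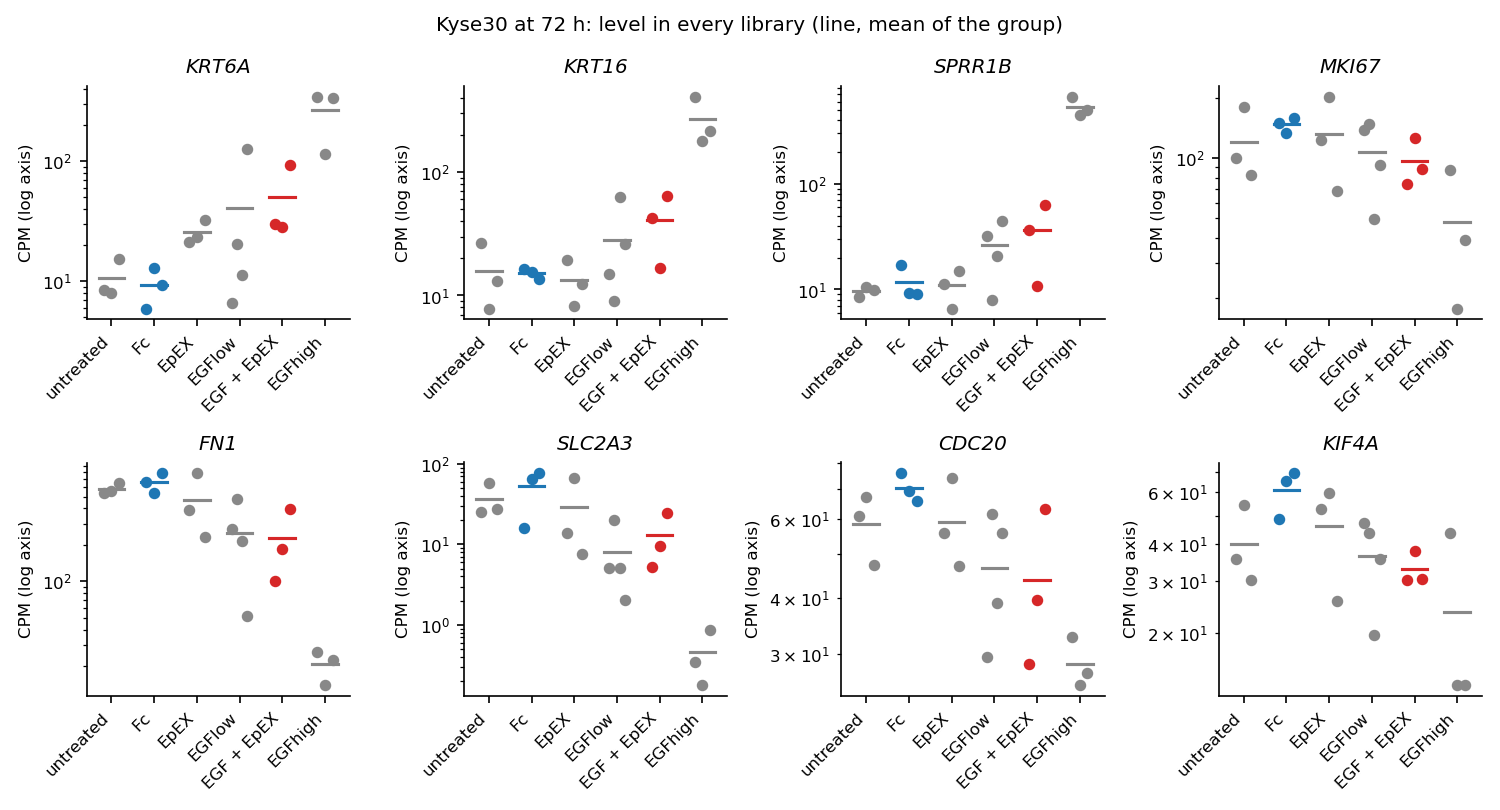
CPM (log axis) of 8 genes in every Kyse30 library of 72 h, grouped by treatment. Points are libraries and lines are group means, with Fc in blue, EGF + EpEX in red, and the other treatments in grey. For KRT6A, KRT16, and SPRR1B, the mean of EGF + EpEX lies above Fc and below EGFhigh. The means of the other 5 genes have the opposite order.

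Desmosomes and hemidesmosomes anchor squamous cells to each other and to the basement membrane. In the desmosome list, 7 of 10 genes were higher with a median of 0.09. Only JUP and PERP differed at an unadjusted p under 0.05, both higher, against 2.18% higher over all genes. JUP, the plaque protein plakoglobin, measured 483.7, 498.4, and 544.9 CPM against 425.2, 345.9, and 329.1 CPM (log2FC 0.47 ± 0.22). PERP, a desmosomal membrane protein and p53 target, measured 956.6, 1044, and 973.7 CPM against 832.3, 715, and 640.5 CPM (log2FC 0.44 ± 0.22). Both genes were separated between groups, with Fc replicate 3 the lowest library. The mean of JUP was 482.7 ± 45.6 CPM (SD) in untreated cells of 72 h and 487.2 ± 61.8 CPM after EpEX alone, so Fc was the low group. For PERP these means were 800.5 ± 117.7 and 895.6 ± 268.1 CPM. Of 10 hemidesmosome and laminin-332 genes, 6 were higher and the median was 0.05. ITGB4, the integrin chain that binds laminin in hemidesmosomes, measured 1148, 747.4, and 2059 CPM against 1209, 582.8, and 961 CPM and overlapped (log2FC 0.52 ± 0.30). LAMB3, a chain of laminin-332, measured 82.0, 118.8, and 170.5 CPM against 94.1, 77.03, and 62.2 CPM. LAMB3 overlapped between groups (log2FC 0.66 ± 0.39).

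Among EMT genes, the difference lay in fibronectin. FN1, the matrix glycoprotein that many EMT lists count as mesenchymal, measured 100.7, 186.4, and 393.7 CPM after EGF + EpEX and 657.5, 531.9, and 783 CPM after Fc. Treated and Fc libraries did not overlap, and the treated ones ranged almost 4-fold among themselves, with replicate 3 the highest. The log2FC was −1.53 ± 0.59 (SE). FN1 was also low in EGFlow, at 252.7 ± 174.2 CPM, and far lower in EGFhigh, at 20.8 ± 6.19 CPM (both SD). EpEX alone gave 468.7 ± 281.9 CPM and untreated cells 582.5 ± 61.9 CPM (both SD). For EGF + EpEX over EpEX the log2FC of FN1 was −1.05 ± 0.58 (SE). Vimentin (VIM) and E-cadherin (CDH1) overlapped between groups. VIM measured 53.1, 40.8, and 73.6 CPM against 41.6, 50.0, and 96.1 CPM, and its log2FC of −0.15 turned positive in 4 alternatives, among them the fit without Fc replicate 3. CDH1 measured 228.2, 194.5, and 260.1 CPM against 172.9, 243, and 68.3 CPM, with Fc replicate 3 the lowest. Of the EMT transcription factors, SNAI1 and ZEB2 did not pass the filter on low counts, and the 5 that did overlapped between groups. In the whole list of 11 genes, 7 were higher and 4 lower, and only FN1 had an unadjusted p under 0.05.

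The study's EGFR-mediated EMT signature was chosen on libraries of this series, EGFhigh among them, so its direction there is not independent evidence. All 171 signature genes were tested. In the first block of its table, whose genes had a median of 1.25 for EGFhigh, 67 of 80 genes were higher after EGF + EpEX and 13 lower, with a median of 0.24. Groups were apart for 10 of the 80, all higher (4.52% over all genes), and 6 genes, all higher, had an unadjusted p under 0.05 (2.18% over all genes). In the second block, with a median of −1.30 for EGFhigh, 76 of 91 genes were lower and 15 higher, with a median of −0.28. Groups were apart for 22 of the 91 that were lower (4.03% over all genes) and for 1 that was higher, C19orf48P, by a narrow margin. For EpEX alone over Fc at 72 h, the medians of the first and second block were 0.17 and −0.12. For EGF + EpEX over EpEX they were 0.084 and −0.14. Among signature genes whose groups were apart, those with the lowest p in each direction were SEC14L1 (log2FC 0.76) and PINK1 (0.66), a mitochondrial kinase, and PDE7A (−1.03), a phosphodiesterase, and CDC20. PDE7A had a mean of 59.4 ± 31.6 CPM (SD) after Fc. It was at 34.6 ± 2.89 CPM in untreated cells and 34.15 ± 10.07 CPM after EpEX alone, so Fc was the high group. By contrast, the pEMT list (47 higher, 43 lower of 90, median 0.04) and the EMT hallmark list (72 higher, 80 lower of 152, median −0.02) had medians near that of all genes.

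Most cell cycle genes tested were lower, and the lists of mitosis had the lowest medians among them. G2/M genes serve chromosome condensation, spindle assembly, and the checkpoint before anaphase. Of 54 G2/M genes tested, 47 were lower and 7 higher, with a median log2FC of −0.37. Of these, 14 had groups that did not overlap, all lower, and 10 genes, all lower, had an unadjusted p under 0.05. Over all genes tested, the shares lower in these 2 ways were 4.03% and 1.74%. In every fit that left out 1 of the 6 libraries the median stayed negative, from −0.49 to −0.23, and 41 to 49 genes were lower. The mean log2 CPM over the list was 5.05, 5.57, and 5.36 in the treated libraries and 5.60, 5.80, and 5.61 in the Fc libraries. Each treated library was below each Fc library, but untreated cells of 72 h (5.53, 5.76, and 5.42) overlapped with the treated group, and against untreated cells the median was −0.24. EGFhigh libraries were lower than both, at 4.80, 4.18, and 4.35.

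The same holds for the smaller lists of mitosis, which share members with G2/M. Together with it they held 103 tested genes, of which 90 were lower and 13 higher, with a median of −0.35. The groups did not overlap for 21 of the 103 (20.39%, against 4.03% over all genes), all lower. The spindle genes (22 of 26 lower, median −0.51) and the kinetochore and checkpoint genes (23 of 26 lower, median −0.46) had the largest medians. All 15 condensation and cohesion genes were lower (median −0.29), as were 12 of 15 genes of mitotic entry (median −0.30). Genes of S phase (34 of 43 lower, median −0.16) and DNA replication (29 of 36 lower, median −0.17) were less shifted, and none of them had an unadjusted p under 0.05. For comparison, 32 of the 54 G2/M genes were DEGs for EGFhigh at 72 h and 16 for EGF + EpEX at 6 h, all lower, and 1 was a higher DEG at 6 h. Over all genes tested, DEGs of both directions made up 6.2% and 4.52% in these comparisons.

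KIF4A, a motor protein of mitotic chromosomes, measured 30.2, 38.0, and 30.5 CPM after EGF + EpEX and 48.6, 65.6, and 69.6 CPM after Fc (log2FC −0.89 ± 0.32). CDC20, an activator of the anaphase-promoting complex, measured 28.5, 39.5, and 63.1 CPM against 75.8, 69.0, and 65.8 CPM (log2FC −0.69 ± 0.25). For KIF4A the gap between treated and Fc libraries was wide, and for CDC20 treated replicate 3 came close to Fc replicate 3. Means of untreated cells of 72 h were 40.03 ± 12.55 CPM (SD) for KIF4A and 58.4 ± 10.2 CPM for CDC20. After EpEX alone they were 46.1 ± 17.9 and 58.96 ± 13.76 CPM. CKAP2, a spindle protein, measured 24.9, 20.8, and 17.0 CPM against 28.4, 47, and 35.1 CPM (log2FC −0.81 ± 0.29). BIRC5, the survivin subunit of the chromosomal passenger complex, measured 41.2, 73.4, and 70.6 CPM against 76.2, 86.7, and 142.2 CPM (log2FC −0.72 ± 0.26). Both were lower in every treated library, in BIRC5 by a narrow margin for 2 of them. The mean of CKAP2 was 24.7 ± 6.36 CPM (SD) in untreated cells and 24.2 ± 4.11 CPM after EpEX alone, so Fc was the high group. For BIRC5 these means were 100.5 ± 4.91 and 87.1 ± 14.6 CPM. MKI67, the source of the proliferation marker Ki-67, measured 74.1, 126.5, and 88.6 CPM against 150.4, 133, and 159.3 CPM (log2FC −0.62 ± 0.40). The mitotic cyclin CCNB1 overlapped between groups, at 34.3, 54.3, and 31.8 CPM against 44.8, 67.2, and 36.8 CPM. MCM4, a subunit of the replicative helicase, measured 153.2, 145.2, and 145.1 CPM against 202.5, 214.6, and 197 CPM (log2FC −0.47 ± 0.25).

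Promoters of G2/M genes are known for CCAAT boxes and for the cell cycle homology region, and since most genes of the list were lower, the stretch before the start is shown for CDC20, MKI67, and CKAP2, which belong to it, and for KIF4A of the spindle list (RefSeq, GRCh38.p14, 120 bases, 5′ to 3′ in the direction of the gene). They lie at chr1:43358861-43358980 (CDC20, plus strand), chrX:70289984-70290103 (KIF4A, plus strand), chr10:128126424-128126543 (MKI67, minus strand), and chr13:52455868-52455987 (CKAP2, plus strand). Capitals mark CCAAT or its complement ATTGG, and TTTGAA or its complement TTCAAA, searched on both strands.
CDC20: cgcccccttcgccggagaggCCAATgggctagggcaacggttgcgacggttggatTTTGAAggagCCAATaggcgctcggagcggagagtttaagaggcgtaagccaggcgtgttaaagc
KIF4A: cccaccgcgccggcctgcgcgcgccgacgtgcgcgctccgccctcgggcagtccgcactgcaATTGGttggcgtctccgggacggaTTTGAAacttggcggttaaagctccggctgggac
MKI67: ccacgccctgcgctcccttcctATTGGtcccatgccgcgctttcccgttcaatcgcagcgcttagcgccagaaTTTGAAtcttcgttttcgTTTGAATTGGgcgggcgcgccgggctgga
CKAP2: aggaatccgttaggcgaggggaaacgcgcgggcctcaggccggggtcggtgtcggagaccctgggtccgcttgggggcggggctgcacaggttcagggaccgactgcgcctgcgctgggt
In MKI67 a TTTGAA and an ATTGG share a base. CDC20 holds CCAAT 2 times and TTTGAA 1 time, MKI67 holds each motif 2 times, KIF4A holds 1 of each, and CKAP2 holds neither in these bases. In the 250 bases before the start, 31 of 45 G2/M genes with a promoter entry (68.9%) held CCAAT, 24 (53.3%) held TTTGAA, and 21 (46.7%) held both, against 33%, 13.6%, and 4.85% of all 27305 promoters. Both motifs occurred in 9 of the 12 promoters of members whose groups did not overlap and in 12 of the 33 promoters of the other members. Members were split by the levels described here, none was a DEG, and a link between motifs and levels was not tested. These are matches of letters, not measured binding sites.

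**Figure D3:**
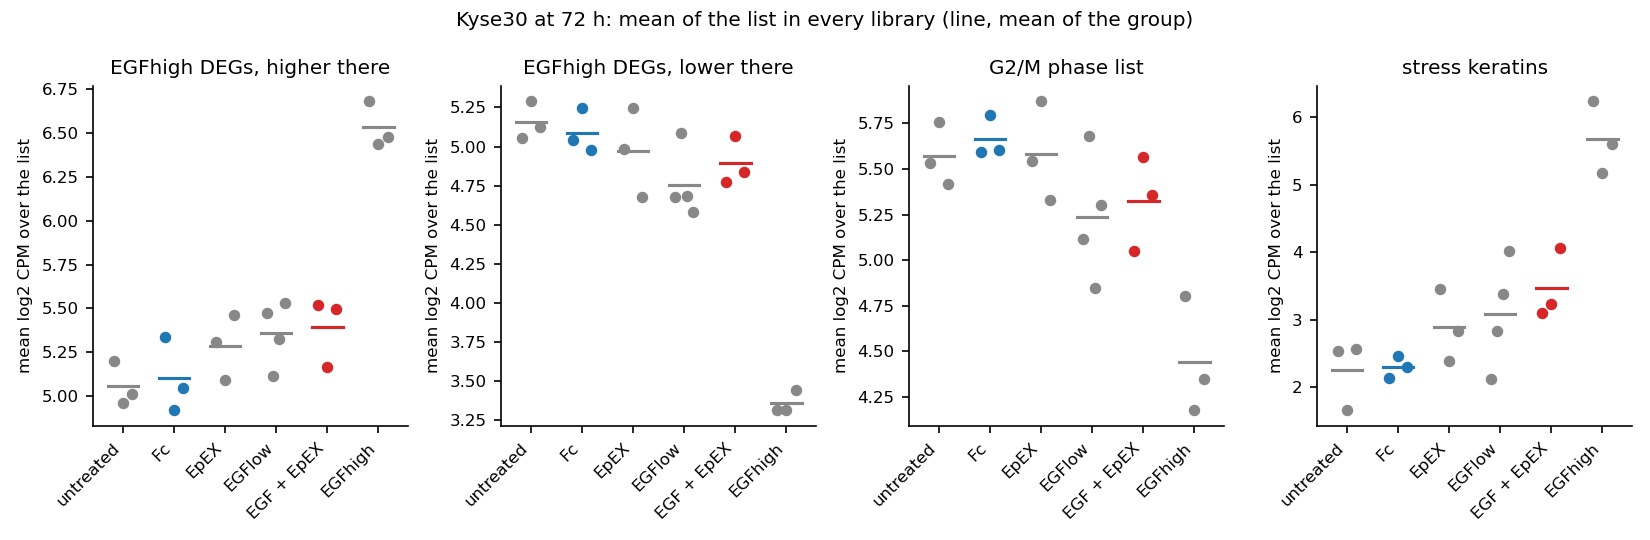
Mean log2 CPM over a list in every Kyse30 library of 72 h, by treatment, for genes higher and lower with EGFhigh, G2/M genes, and stress keratins, in 1 panel each. Points are libraries, lines are group means, Fc is blue, and EGF + EpEX is red. EGF + EpEX libraries lie closer to Fc and untreated cells than EGFhigh libraries do in G2/M genes, stress keratins, and the EGFhigh lists.

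EGFR itself measured 3548, 3465, and 3458 CPM after EGF + EpEX and 3657, 4328, and 4839 CPM after Fc, so that the treated libraries were the 3 lowest (log2FC −0.29 ± 0.18). In EGFhigh its mean was 2003 ± 313.7 CPM. The mean of EGFR was 3280 ± 272.4 CPM after EpEX alone, 3275 ± 515.8 CPM in EGFlow, and 4100 ± 561.2 CPM in untreated cells (all SD). For EGF + EpEX over EpEX its log2FC was 0.09 ± 0.18 (SE). EPCAM, the gene of the protein EpEX is taken from, measured 243.9, 184.7, and 142.7 CPM against 212.8, 202.7, and 113.2 CPM. EPCAM overlapped between groups, and its log2FC of 0.11 changed sign when 1 library was left out. Of 7 EGFR family ligands tested 5 were higher, with a median of 0.22, against 1.03 at 6 h. AREG, the ligand amphiregulin, measured 247.2, 250.1, and 267.7 CPM against 201.6, 236.6, and 182.1 CPM, higher in every treated library by small amounts (log2FC 0.30 ± 0.44). The mean of AREG was 331 ± 205.5 CPM (SD) after EpEX alone. For EGF + EpEX over EpEX its log2FC was −0.38 ± 0.44. Genes that feed back on the MAPK cascade (DUSP, SPRY, and SPRED members among them) were split, with 8 of 16 higher and a median of −0.01. DUSP6, a phosphatase of ERK, measured 235.1, 282.2, and 195.8 CPM against 367.9, 292.3, and 109.9 CPM and overlapped. AP-1 and immediate early genes (10 of 15 higher, median 0.07) and the list of EpCAM, TROP2, and their proteases (11 of 14 higher, median 0.09) had no member at an unadjusted p under 0.05 or with groups apart.

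Most genes of MHC class I antigen presentation were higher, and the replicate 3 libraries of both groups were the lowest of their group in the mean over the list. HLA-C, a class I heavy chain, measured 382.9, 377.9, and 213.8 CPM against 199.8, 221.5, and 60.9 CPM, and HLA-B, another, 732.2, 566.0, and 321.8 CPM against 398.6, 421.8, and 126.0 CPM. Both overlapped through treated replicate 3. HLA genes share sequence, so reads may have been split among them. Of 12 genes in the list, 11 were higher and 1 lower, with a median of 0.68. An unadjusted p under 0.05 was found for 3, all higher, against 2.18% higher over all genes. The median was 0.42 without Fc replicate 3 and 0.94 without EGF + EpEX replicate 3. It was 0.45 for EGFhigh and 0.10 at 6 h. Interferon-stimulated genes were less uniform, with 19 of 29 higher and a median of 0.17.

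Most lists of metabolism and growth had medians close to 0. At 6 h, 25 of 62 ribosome biogenesis genes were higher DEGs, against 462 of all 15350 genes tested. At 72 h these genes were split (33 higher, 29 lower of 62, median 0.02). Cytosolic ribosomal proteins (35 of 50 higher, median 0.10) and nuclear genes of oxidative phosphorylation (30 of 44 higher, median 0.12) were slightly higher, with 5 members in each whose groups did not overlap, all higher, against 4.52% over all genes. RPL34, a protein of the large ribosomal subunit, measured 740.5, 1384, and 868.8 CPM against 725.3, 503.4, and 521.6 CPM (log2FC 0.77 ± 0.24). COX6C, a subunit of cytochrome c oxidase, measured 349.1, 413.7, and 300 CPM against 251.7, 239.3, and 163.4 CPM (log2FC 0.70 ± 0.25). RPL34 was separated from Fc narrowly in replicate 1 and COX6C clearly in all. In untreated cells of 72 h their means were 737.5 ± 197.5 and 286.5 ± 64.2 CPM (SD). After EpEX alone they were 909 ± 196 and 313.7 ± 33.3 CPM. These means lay between those of Fc and EGF + EpEX. Cholesterol synthesis genes (9 higher, 16 lower of 25, median −0.12), fatty acid synthesis genes (5 higher, 7 lower of 12, median −0.01), and glycolysis genes (9 higher, 10 lower of 19, median −0.03) were mixed. PFKFB4, which makes the glycolytic activator fructose 2,6-bisphosphate, stood out in the hypoxia list (12 of 15 higher, median 0.14), at 9.01, 6.22, and 8.43 CPM against 1.21, 3.90, and 0.645 CPM. Its mean was 11.9 ± 12.6 CPM (SD) after EpEX alone and 6.04 ± 3.20 CPM in untreated cells of 72 h, so Fc was the low group. LDHA, the A chain of lactate dehydrogenase, measured 358.3, 424.7, and 440.1 CPM against 280, 264.6, and 253.7 CPM (log2FC 0.61 ± 0.34). The mean of LDHA was 684.3 ± 642.8 CPM (SD) after EpEX alone and 331 ± 14.4 CPM in untreated cells. For EpEX alone over Fc at 72 h, the median was 0.996 in the hypoxia list and 0.50 in the glycolysis list.

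Lists of other signals were small in shift. YAP/TAZ targets (10 of 15 lower, median −0.27) and TGF-beta genes (10 of 16 lower, median −0.07) each held 1 member that was lower at an unadjusted p under 0.05 with groups apart. These were TEAD4, a partner transcription factor of YAP (log2FC −0.90), and SKIL, a repressor of SMAD signaling (log2FC −0.77). Inflammatory cytokines (7 of 10 higher, median 0.34), matrix proteases and the urokinase system (10 of 15 higher, median 0.21), ATF4 targets (12 of 19 higher, median 0.10), p53 targets (9 of 20 higher, median −0.06), and the list of CDK inhibitors, D cyclins, and MYC (8 of 14 higher, median 0.11) held 1 gene at a p under 0.05 in all, a higher one among the matrix proteases.

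**Figure D4:**
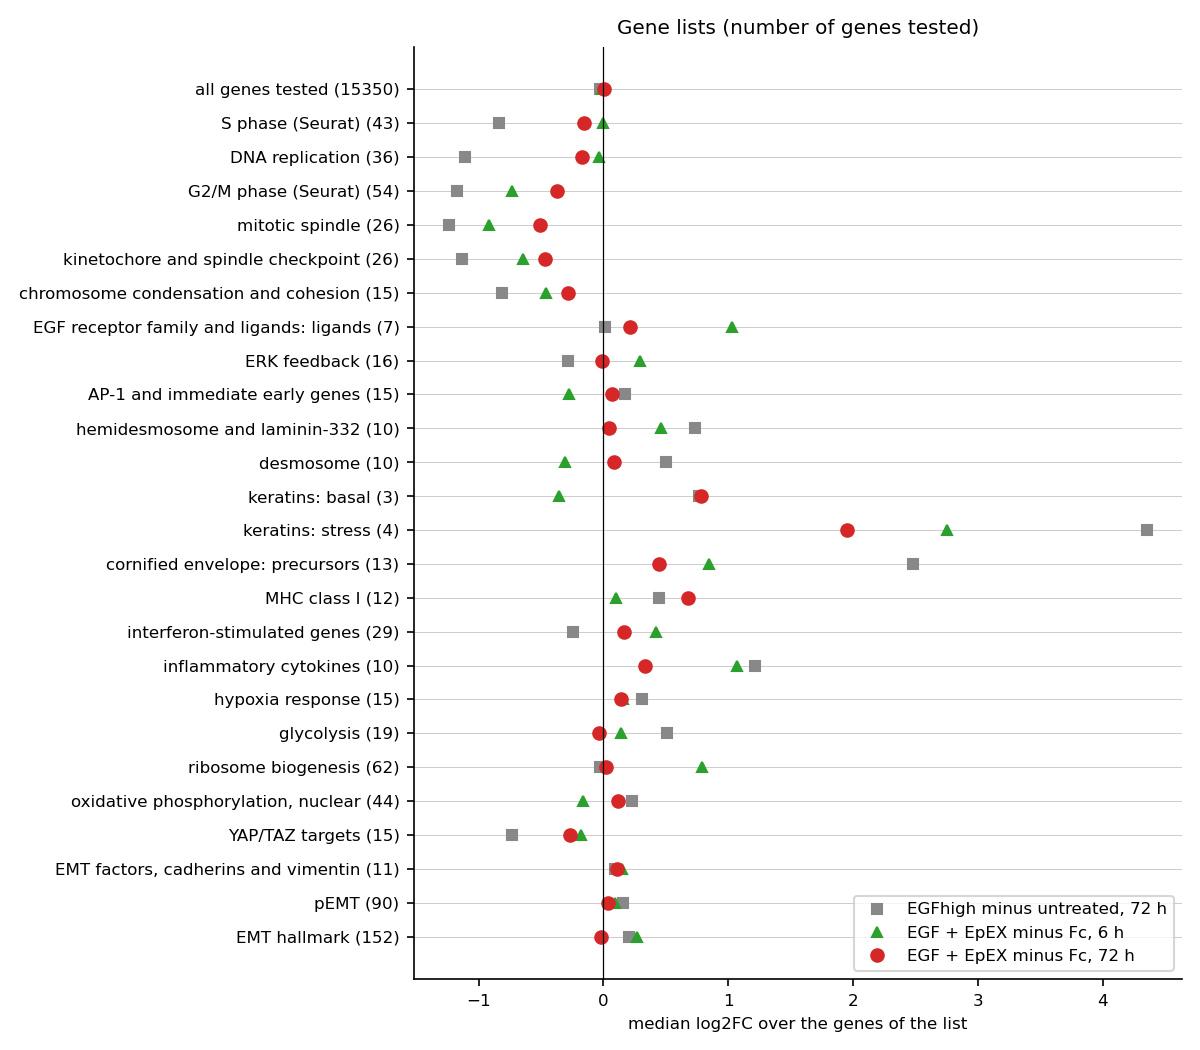
Median log2FC of each gene list (x axis; the number of genes tested stands beside the name) for EGF + EpEX minus Fc at 72 h (red circles), EGFhigh minus untreated at 72 h (grey squares), and EGF + EpEX minus Fc at 6 h (green triangles). Stress keratins have the red circle farthest to the right, at 1.95, and the lists of mitosis lie between −0.51 and −0.29. In most lists the red circle lies closer to 0 than the grey square.

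A fixed rule named the 10 highest and the 10 lowest log2FC values among 252 genes with an unadjusted p under 0.05, groups apart, and a mean of at least 5 CPM (138 higher, 114 lower). Besides KRT6A, the highest were CNTN1, C1orf226, KSR1, KCNK6, SRPX2, and NIPAL2 and 3 genes without a symbol in the table used (ENSG00000275202, ENSG00000282988, and ENSG00000213058). KSR1, a scaffold of the RAF-MEK-ERK cascade, measured 16.9, 29.6, and 23.7 CPM against 7.75, 9.86, and 3.55 CPM (log2FC 1.70 ± 0.48). KCNK6, a potassium channel, measured 16.9, 10.9, and 14.2 CPM against 6.16, 1.61, and 5.16 CPM (log2FC 1.67 ± 0.48). These levels are low, and Fc replicate 3 held few reads of several of the genes. In untreated cells of 72 h the means of KSR1 and KCNK6 were 11.97 ± 6.49 and 9.07 ± 6.04 CPM (SD). After EpEX alone they were 15.2 ± 4.45 and 9.99 ± 4.04 CPM. These means lay between those of Fc and EGF + EpEX. The rule judged differences from Fc only. The lowest were E2F7, SDHAF3, LRRC37BP1, ZNF532, FN1, USP45, C1orf109, METTL6, C18orf21, and MTO1, of which all but FN1 were at 22.9 CPM or lower in every library. E2F7, a repressor of the E2F family, measured 4.01, 2.79, and 1.91 CPM against 4.11, 21.8, and 9.99 CPM (log2FC −2.02 ± 0.63). Its mean was 5.63 ± 2.33 CPM (SD) in untreated cells and 6.36 ± 2.97 CPM after EpEX alone. Both means lay nearer to EGF + EpEX (2.90) than to Fc (11.96). SDHAF3 had a mean of 12.03 ± 9.45 CPM after Fc. It was at 4.16 ± 2.35 CPM in untreated cells and 4.65 ± 1.21 CPM after EpEX alone, so Fc was the high group.

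Genes of the EGF response were taken from a comparison that shares no library with the 6 described here. This comparison, EGFhigh over untreated cells at 72 h, gave 951 DEGs (6.2%), 466 higher and 485 lower. After EGF + EpEX, 360 of the 466 (77.25%) were higher than in Fc and 106 lower, against 50.12% higher over all genes. The median log2FC was 0.22 in place of 1.26. The groups did not overlap for 47 of them that were higher (10.09%, against 4.52% over all genes) and for 5 that were lower. Of the 485 genes lower with EGFhigh, 360 (74.23%) were lower after EGF + EpEX and 125 higher, with a median of −0.23 in place of −1.55. Their groups did not overlap for 70 that were lower (14.43%, against 4.03%) and for 9 that were higher. When each of the 6 was left out in turn, the median ranged from 0.15 to 0.32 for the first list and from −0.32 to −0.14 for the second. For EpEX alone over Fc at 72 h, the medians of these lists were 0.15 and −0.13. For EGF + EpEX over EpEX they were 0.085 and −0.076. The parts of EGF and of EpEX in these shifts were not tested.

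The groups of genes with the strongest EGFhigh response also had the largest medians here. In the 117 most raised genes (median 2.33 with EGFhigh) the median after EGF + EpEX was 0.49, and in the following groups by size (117, 116, and 116 genes, medians 1.49, 1.08, and 0.80) it was 0.25, 0.14, and 0.10. In the 122 most lowered genes (median −2.99) it was −0.37, and in the following groups of 121 genes each (−1.80, −1.36, and −0.94) it was −0.21, −0.25, and −0.18. The mean log2 CPM over the raised list was 5.52, 5.17, and 5.50 after EGF + EpEX, 5.34, 4.92, and 5.05 after Fc, and 6.68, 6.44, and 6.48 after EGFhigh. EGF + EpEX and Fc libraries overlapped on this mean, and both lay far from EGFhigh. Of the 10 most raised EGFhigh DEGs with a mean of at least 5 CPM over the EGFhigh and untreated libraries, 9 were higher after EGF + EpEX, with a median of 1.49 (1.25 with SPRR2E, at 0 in every Fc library, set to its bound) in place of 5.39. This median rests on low counts: all but SPRR1B and KRT6A were at 5.58 CPM or lower in each of the 6 libraries. MYH16 measured 0.572, 0.429, and 0.636 CPM after EGF + EpEX and 0.0934, 0, and 0.322 CPM after Fc. Of the 10 most lowered, all 10 were lower, with a median of −0.55 in place of −5.42. SLC2A3, the neuronal type glucose transporter GLUT3, led the latter at 5.29, 9.44, and 24.3 CPM after EGF + EpEX and 16.1, 65.6, and 77.1 CPM after Fc. Treated replicate 3 lay above Fc replicate 1, so the groups overlapped (log2FC −2.01 ± 0.76). In EGFhigh SLC2A3 was at 0.462 ± 0.353 CPM.

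**Figure D5:**
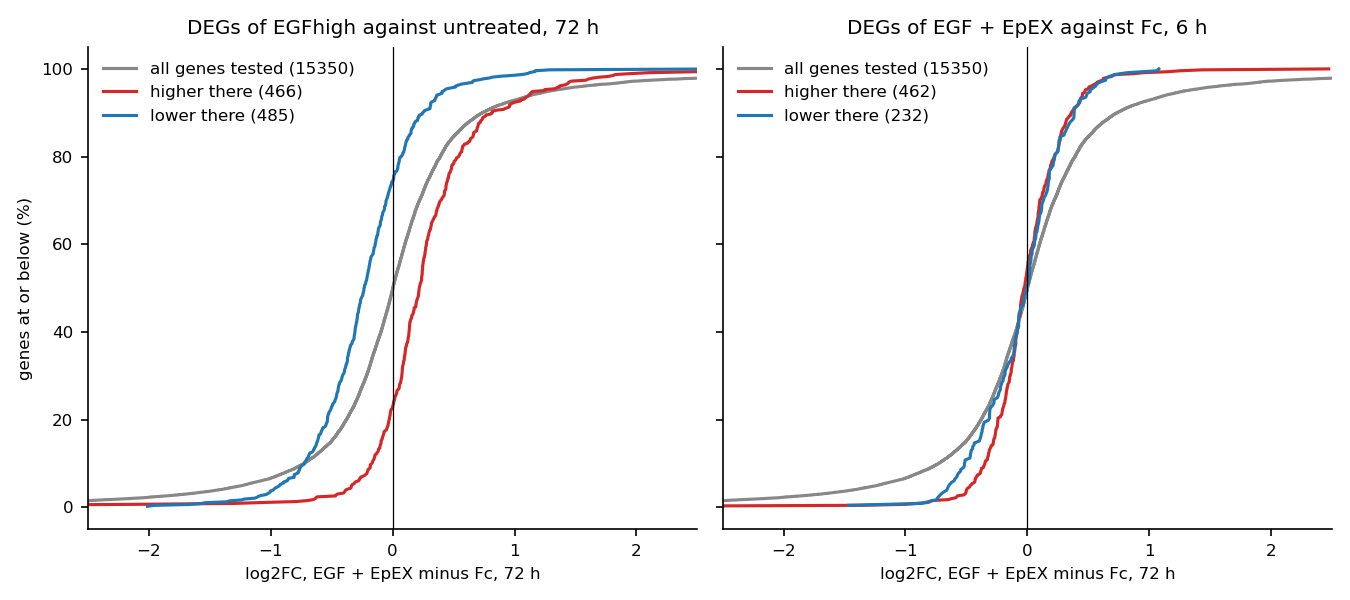
Cumulative share of genes (y axis, %) at or below a log2FC of EGF + EpEX minus Fc at 72 h (x axis), for genes called with EGFhigh at 72 h and for genes called with EGF + EpEX at 6 h, higher and lower, beside all genes tested. The curves of the EGFhigh lists part around 0, with medians of 0.22 and −0.23. The curves of the 6 h lists, with medians of −0.03 and −0.01, run close to all genes.

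Genes of the early response had medians near 0 at 72 h. EGF + EpEX over Fc at 6 h gave 694 DEGs (4.52%), 462 higher and 232 lower. At 72 h, 211 of the 462 were higher and 251 lower, with a median of −0.03 in place of 1.06, and 115 of the 232 were higher and 117 lower, with a median of −0.01 in place of −1.12. These medians changed sign with the library left out, from −0.14 without Fc replicate 2 to 0.10 without Fc replicate 3 for the first list and from −0.14 without Fc replicate 3 to 0.15 without Fc replicate 2 for the second. The 66 genes that were higher DEGs both at 6 h and with EGFhigh at 72 h had a median of 0.13 (46 higher), and the 37 that were lower DEGs in both had a median of −0.27 (29 lower).

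Whether the response to the combination differed between 72 h and 6 h was tested as a difference of both responses, which contains the libraries of 6 h. This gave 43 DEGs (0.28%), 10 with a higher log2FC at 72 h and 33 with a lower one. All 33 were higher DEGs at 6 h and 8 of the 10 were lower DEGs at 6 h, with medians of 1.34 and −0.99 at 6 h and of −0.26 and 0.52 at 72 h. The test that chose these genes holds the libraries of both times, so their directions and medians partly follow from the choice. ARID3B, a DNA-binding protein, gave the lowest p. It measured 49.4 ± 19.1 CPM (SD, n = 4) against 9.91 ± 1.32 CPM (n = 3) at 6 h, and 13.9, 11.2, and 10.97 CPM against 19.7, 10.3, and 16.4 CPM at 72 h. Its log2FC differed by −2.69 ± 0.48 (SE, edgeR adjusted p = 0.01736). The next by p were MED27, a Mediator subunit, TSSC4, ANKLE2, and RRP1, a protein of ribosome biogenesis, each with an adjusted p of 0.02499 (edgeR). At 72 h only ANKLE2 of these 5 was separated between groups, at 54.5, 51.0, and 48.7 CPM against 70.6, 72.2, and 74.8 CPM. Of 62 ribosome biogenesis genes, 4 were among the 33, against 33 of all 15350 genes tested. The count of 43 rests on few libraries: it was 0 when Fc replicate 1 or 4 of 6 h, EGF + EpEX replicate 2 of 72 h, or Fc replicate 3 of 72 h was left out, and 131 without Fc replicate 2 of 72 h.

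Whether the response to EGF at 72 h differed with EpEX was tested as EGF + EpEX over Fc minus EGFhigh over untreated cells, which contains the EGFhigh libraries. It gave 65 DEGs (0.423%), of which 35 had a higher and 30 a lower log2FC with EpEX. Of the 35, 34 were lower DEGs with EGFhigh, and all 30 were higher DEGs with EGFhigh, with medians of −2.57 and 1.75. Over Fc, these genes had medians of −0.08 and 0.00 after the combination. The test that chose them holds the EGF + EpEX and Fc libraries too, so these directions and medians partly follow from the choice. SEMA3D, a secreted semaphorin, gave the lowest p, with 49.7, 107.4, and 90.5 CPM after EGF + EpEX, 107.5, 150.6, and 111.9 CPM after Fc, and 5.63 ± 1.42 CPM (SD, n = 3) after EGFhigh against 115.9 ± 27.1 CPM in untreated cells. The responses differed by 3.78 ± 0.49 (SE, edgeR adjusted p = 2.24e-05). SPRR1B came next, with a difference of −4.21 ± 0.63 (edgeR adjusted p = 0.0002614). ID4, an inhibitor of helix-loop-helix factors, differed by 4.45 ± 0.74 (edgeR adjusted p = 0.001683). OSR2, a zinc finger protein, differed by 2.55 ± 0.45 (edgeR adjusted p = 0.004656). KRT6A (adjusted p = 0.4045), KRT16 (0.09605), and FN1 (0.06817) were not called in this edgeR test. The difference holds the change of Fc against untreated cells as well, in which edgeR called 0 genes (439 at an unadjusted p under 0.05). The count of 65 fell to 13 without EGF + EpEX replicate 2, 16 without Fc replicate 1, 17 without untreated replicate 2, 26 without untreated replicate 1 or 3, 28 without EGFhigh replicate 1, 35 without EGFhigh replicate 3, and 39 without EGF + EpEX replicate 1.

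What EGF added in the presence of EpEX was asked by setting EGF + EpEX against EpEX at 72 h. The edgeR test gave 1 DEG (0.00651%), the metallothionein gene MT1X, which codes for a metal-binding protein and was lower with EGF. MT1X measured 4.15, 5.79, and 8.91 CPM after EGF + EpEX and 9.09, 27.9, and 264.1 CPM after EpEX. EpEX replicate 4 lay far above the other libraries, and Fc libraries were at 5.32, 11.5, and 13.2 CPM. The log2FC was −3.99 ± 0.68 (SE, edgeR adjusted p = 0.008901), and no gene was called without EpEX replicate 4 or when any 1 of the 3 EGF + EpEX libraries was left out. EpEX alone over Fc gave 0 DEGs by edgeR, with 554 genes below that unadjusted threshold and a lowest adjusted p of 0.1033.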

How the data were processed

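Per the labels, total RNA of Kyse30 cells was made into QuantSeq 3′ FWD libraries. The authors deposited raw counts of reads per gene for each library, and the submitters' processing notes name STAR, HTSeq, and the builds GRCh38 and hg38 (versions, annotation, strand setting, and use of molecular identifiers are not given in the sources used here). Rows of HTSeq that name no gene were not used: of all reads tallied, 7.2 to 13.9% had no feature and 28.8 to 37.1% did not match 1 place only. Symbols were joined by Ensembl identifier for 57754 of 58395 genes. Replicates are separate samples in the labels. The study calls its micrographs of these treatments independent experiments but does not say so of the libraries, so p-values measure the spread between these samples, which may be technical.

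All 43 Kyse30 libraries entered 1 fit with 1 mean per group of the quasi-likelihood test of edgeR 4.0.16 under R 4.3.3, with TMM normalization, after filterByExpr (minimum count 10, minimum total 15). P-values were adjusted by Benjamini-Hochberg over all genes tested, and a gene counted as a DEG where its adjusted p was 0.05 or lower and its log2FC exceeded 0.5 in size, a threshold taken from the study's methods. Log2 CPM used a prior count of 2, and CPM used the TMM factors. The summed CPM of cell markers and the floor of detection used total counts on genes instead. The script was tested on simulated data. Named genes were the 10 highest and 10 lowest log2FC under the rule given above, up to 2 genes per direction in each list with the lowest p and groups apart, 12 genes always given, and the 5 lowest p of each comparison of responses. TSPAN1, KRT13, KRT15, KRT17, KRT19, HLA-B, HLA-C, CGA, CD9, C19orf48P, SPRR2E, MT1X, MT2A, and HDAC9 fall outside the rule and were named after their values had been seen, and some genes that the rule names are not reported here. The genes compared and the lists were chosen with earlier results of these data known. The fits were repeated with DESeq2 1.42.0, with RLE size factors, with every gene that had a count, with genes averaging 5 CPM or more, with the libraries of the contrast alone, with a block for the replicate number, with untreated cells (or untreated and Fc) as control, with counts thinned to the lowest total, and without each library. Floors cover counting error only, whereas SE and SD include the spread between libraries. Promoter sequences are RefSeq's on GRCh38.p14.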

Additional observations from a re-analysis of the deposited data

Results flagged for a closer look

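The response to EGF + EpEX over Fc differed between 72 h and 6 h for 43 genes, by a test of the difference itself (edgeR, adjusted p at most 0.05). The response to EGF over its own control at 72 h differed with and without EpEX for 65 genes by the same kind of test. Single genes were not tested for 1 library far from the rest of its group, since both groups held 3 libraries.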

How the results depend on the processing

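Values were recomputed for lists, single genes, and the number at an unadjusted p under 0.05. Of these, 2145 stayed the same, 41 moved, 12 turned their sign, and 5, all single genes, passed the adjusted threshold in addition. Staying the same meant a list median within the spread between libraries, or a number within 1.5 times. For a single gene it meant the same sign and the same call, and its size was not judged. Of the recomputed counts of DEGs, 39 moved by more than 1.5 times and 25 did not. EGF + EpEX over Fc had 0 DEGs with DESeq2 (645 genes at an unadjusted p under 0.05), RLE factors, a mean of at least 5 CPM, only both groups in the fit, thinned counts, and untreated cells as control, and 10 with no filter. Leaving out 1 library gave 0 to 1, the 1 being HDAC9 without Fc replicate 1. The 601 genes at an unadjusted p under 0.05 became 1048 with no filter, 382 with a mean of at least 5 CPM, 337 with both groups only, 392 with untreated cells as control, and 309 with thinned counts. With no filter, EGF + EpEX against EpEX gave 8 DEGs, the difference between 72 h and 6 h 212, and the difference with and without EpEX 250. With only the groups of the contrast in the fit these were 0, 2, and 23, and with DESeq2 the last 2 were 255 and 162. A mean of at least 5 CPM gave 67 for the difference between times. The cause was not tested. Leaving out 1 library gave 0 to 2 DEGs for EGF + EpEX against EpEX (2, MT1X and MT2A, without EpEX replicate 1), 0 to 131 for the difference between times, and 13 to 66 for the difference with and without EpEX. For the difference between times, other libraries that moved the count by more than 1.5 times were EGF + EpEX of 6 h replicate 3 (9 without it), replicate 2 (19), and replicate 4 (91), Fc of 6 h replicate 3 (23), EGF + EpEX of 72 h replicate 1 (11) and replicate 3 (28), and Fc of 72 h replicate 1 (15).

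In the fit that took replicate numbers as a block, the counts were 0 (lowest adjusted p 0.3057) for EGF + EpEX over Fc, 0 for EGF + EpEX against EpEX, 129 for the difference between times, and 116 for the difference with and without EpEX. All 43 genes of the third comparison and 64 of the 65 of the fourth were called with the block too. The numbers share little beyond the number: deviations of libraries with the same number correlated at 0.059, 0.089, and 0.127, each the highest for its number, a hint from the data and not from the design.

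The log2FC of LOXL1 (−0.36), OSR2 (−0.00991), FSTL3 (0.67), and VIM (0.49) had the other sign with untreated cells as control, and those of LOXL1 (−0.049) and VIM (0.14) with untreated and Fc libraries together. With 1 library left out, EPCAM ranged from −0.11 to 0.29, VIM from −0.39 to 0.30, and DUSP6 from −0.46 to 0.24. The median of the stress keratins was 1.33 without EGF + EpEX replicate 3. At 3 libraries a group and a median SE of 0.43, small differences could not be resolved.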
